A study of Mus musculus with 9 samples.

Results

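Cubilin and megalin are large receptors on the surface of absorptive epithelia that bind proteins and protein-bound vitamins outside the cell and carry them inside in clathrin-coated vesicles. Their genes, Cubn and Lrp2, were followed here with 4 genes that serve the same route: Amn, Dab2, Lrpap1 and Folr1. The 6 genes were chosen by name for their place in this complex, with earlier results of these data known. They came out of 22180 gene symbols with a probe set of their own, and all 6 were measured. Each was read by 1 probe set that names no other gene.

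RNA came from embryoid bodies (EBs), in which aggregated C57BL/6 mouse embryonic stem cells begin to differentiate. All EBs formed in hanging drops for 3 days in a basal medium that lacks the factors used to hold the cells pluripotent (leukemia inhibitory factor, BMP-4 and a GSK3b inhibitor). They were then left unexposed (control), or kept for a further 24 h with silver at 5.0 µg/ml, either as citrate-coated silver nanoparticles of 20 nm (AgNP) or as silver ions from silver acetate (Ag+). Each group had 3 arrays, labelled as biological replicates. A single stem cell line was used, and no source used here says that replicates came from separate EB preparations, so p-values measure the spread among these 3 samples a group, which may be technical.

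Cubilin has no membrane anchor of its own. Amnionless, the product of Amn, holds it in the membrane and carries it to the cell surface, and the pair takes up vitamin B12 bound to intrinsic factor. Megalin, the product of Lrp2, belongs to the LDL receptor family and spans the membrane. In mouse embryos these receptors are known from the visceral endoderm, the absorptive layer that feeds the conceptus before the placenta works, and in the adult from the kidney proximal tubule. Dab2 encodes a clathrin adaptor that binds the tail of megalin, Lrpap1 the chaperone RAP that keeps receptors of this family from binding ligands too early in the endoplasmic reticulum, and Folr1 a folate receptor anchored by a lipid tail.

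The sequences just before the transcription starts of the 3 genes that fell most with Ag+, Cubn, Lrp2 and Dab2, are shown because the values of these genes moved together while the stretches differ widely in base composition. They are the 250 bases before each start, from RefSeq on build GRCm38.p6, read 5′ to 3′ on the strand of the gene. Dab2 has 2 starts in that table. Capitals mark matches, on either strand, to short motifs. For GATA factors the letters searched were AGATAA and, as an alternative first base, TGATAA. A half-site of HNF1 was spelled GTTAAT. For forkhead factors TGTTTAC was searched together with the variant TGTTTGC. The half-site of nuclear receptors was spelled AGGTCA and that of SOX factors ACAATG. The core of the metal response element was spelled TGCACNC, and in its other common form TGCGCNC.
Cubn, chr2:13491877-13492126, minus strand: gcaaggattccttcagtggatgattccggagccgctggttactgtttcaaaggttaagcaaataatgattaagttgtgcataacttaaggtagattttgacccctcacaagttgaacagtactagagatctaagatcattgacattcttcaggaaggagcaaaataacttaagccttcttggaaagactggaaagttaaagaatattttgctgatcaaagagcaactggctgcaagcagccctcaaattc
Lrp2, chr2:69586030-69586279, minus strand: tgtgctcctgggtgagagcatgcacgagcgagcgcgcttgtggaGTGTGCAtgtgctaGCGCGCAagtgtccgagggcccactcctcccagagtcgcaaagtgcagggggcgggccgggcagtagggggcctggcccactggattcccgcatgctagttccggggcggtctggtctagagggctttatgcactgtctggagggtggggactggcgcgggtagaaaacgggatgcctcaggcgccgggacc
Dab2, first start, chr15:6299539-6299788, plus strand: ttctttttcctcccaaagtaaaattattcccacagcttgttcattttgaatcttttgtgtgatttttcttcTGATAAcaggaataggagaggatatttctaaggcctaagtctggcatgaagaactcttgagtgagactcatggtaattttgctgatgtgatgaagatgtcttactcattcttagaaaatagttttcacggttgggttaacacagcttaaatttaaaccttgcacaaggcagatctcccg
Dab2, second start, chr15:6386498-6386747, plus strand: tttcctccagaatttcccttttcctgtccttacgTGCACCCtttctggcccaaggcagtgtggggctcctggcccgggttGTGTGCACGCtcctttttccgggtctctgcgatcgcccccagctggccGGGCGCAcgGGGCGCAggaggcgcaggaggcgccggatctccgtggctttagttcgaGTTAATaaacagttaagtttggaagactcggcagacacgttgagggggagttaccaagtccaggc

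The Cubn stretch was poor in G and C (39.6%), held 2 CpG dinucleotides and had no match to any of these letters. The Lrp2 stretch was rich in G and C (66.4%), held 18 CpG dinucleotides and had 2 matches to the metal response core. The first start of Dab2 resembled Cubn in composition, with 36.8% G and C and 2 CpG dinucleotides, and had a single match, to TGATAA. The second start of Dab2 had 60% G and C, 17 CpG dinucleotides, 1 match to GTTAAT and 5 to the metal response core, of which 1 pair overlaps. Over 32851 stretches of the same length, the median was 52.4% G and C with 6 CpG dinucleotides. Of all these stretches, 21.4% had a metal response core, 7.94% TGATAA and 6.43% GTTAAT, so matches are common in general. The stretches before Amn (61.2% G and C) and Lrpap1 (60.8%) had no match to any of the letters, and Folr1 is not in the table.

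All values are log2 signals after robust multi-array average (RMA) summarization, so a difference of 1 is a doubling of the signal on the linear scale. The median of the 25341 named probe sets was 5.06, and the arrays were alike, with correlations of 0.994 to 0.996 within groups and 0.991 to 0.996 between groups. On the second principal component, control replicate 3 (-20.6) and AgNP replicate 1 (19.9) stood apart from the other 7 arrays (-3.68 to 5.75). Members' differences with AgNP and the counts of some lists, not all, are also given without these 2 arrays. Stem cell genes such as Dnmt3b (10.4 ± 0.17 in controls, SD, n = 3) and Tdgf1 (10.6 ± 0.42) had high signals, whereas Dppa5a (4.21 ± 0.17) and Esrrb (4.45 ± 0.19) lay below that median.

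Groups were compared with limma in 1 fit of all 9 arrays, and a gene was called at an adjusted p under 0.05 after Benjamini-Hochberg adjustment over the named probe sets. With Ag+, all 6 genes were called lower than in controls, where 1.47% of named probe sets were (2.28% in either direction). On each of the 6 genes the 3 Ag+ arrays lay below the 3 control arrays without overlap, as was the case for 9.51% of named probe sets. Their log2 fold changes ranged from -3.35 to -0.63 with a median of -1.36, beside a median of 0.00 for all named probe sets. These are levels in RNA of whole EBs, in which fewer cells of a type and less RNA per cell cannot be told apart. The 6 genes were chosen with earlier results of these data known. The shares and ranks given here therefore describe them and are not independent support.

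Cubn gave 9.43, 9.10 and 8.96 on the control arrays (replicates 1, 2 and 3), 9.24, 8.84 and 8.67 with AgNP, and 6.32, 5.62 and 5.49 with Ag+. The AgNP arrays overlapped with the controls, and every Ag+ array lay far below both. The fall with Ag+ was 10.2-fold (log2 fold change -3.35, SE 0.23, 95% CI -3.87 to -2.84, adjusted p = 2.1e-04), the largest fall among all 25341 named probe sets. Cubn lies on chromosome 2, where its annotated gene covers 215539 bases (13276338 to 13491876).

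Lrp2, also on chromosome 2 (69424335 to 69586029), gave 8.36, 8.01 and 7.64 in controls, 8.36, 7.78 and 7.57 with AgNP, and 6.58, 5.74 and 5.49 with Ag+. Its arrays spread more widely within groups than those of any other gene of the complex, with SDs of 0.36, 0.41 and 0.57. Megalin RNA fell 4.20-fold with Ag+ (log2 fold change -2.07, SE 0.30, adjusted p = 0.0076), which ranked 6 among all falls. Even so, the highest Ag+ array (6.58) lay below the lowest array of the other groups (7.57).

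The membrane partner of cubilin changed less. Amn gave 5.82, 5.68 and 5.73 in controls, 6.05, 5.80 and 5.80 with AgNP, and 4.93, 5.17 and 5.22 with Ag+, low signals that came close to the median of all probe sets. It fell 1.55-fold with Ag+ (log2 fold change -0.63, SE 0.098, adjusted p = 0.010). The gene is short, with 5331 bases on chromosome 12 (111271096 to 111276426).

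The adaptor gene Dab2 gave 8.24, 8.17 and 8.10 in controls, 8.17, 7.86 and 7.87 with AgNP, and 6.44, 6.38 and 6.40 with Ag+, and the SD of 0.035 in the last group was the smallest of the 6 genes. The fall with Ag+ was 3.39-fold (log2 fold change -1.76, SE 0.087, adjusted p = 1.3e-04), and its p was the smallest of all named probe sets.

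The chaperone gene Lrpap1 gave 8.30, 8.03 and 8.14 in controls, 8.32, 7.98 and 8.0 with AgNP, and 7.49, 7.47 and 7.64 with Ag+. Its fall of 1.54-fold with Ag+ (log2 fold change -0.63, SE 0.11, adjusted p = 0.018) was the smallest of the 6 and the least firm. The call was lost without control replicate 1 (-0.55, adjusted p = 0.065), control replicate 3 (-0.63, 0.051), Ag+ replicate 1 (-0.60, 0.066) or Ag+ replicate 2 (-0.59, 0.083), while the other 5 genes stayed called with each of the 9 arrays left out.

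Folr1 gave 6.57, 6.43 and 6.35 in controls, 6.73, 6.40 and 6.34 with AgNP, and 5.29, 5.72 and 5.49 with Ag+. The AgNP arrays overlapped with the controls, while the folate receptor gene fell 1.93-fold with Ag+ (log2 fold change -0.95, SE 0.13, adjusted p = 0.0054).

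**Figure D1:**
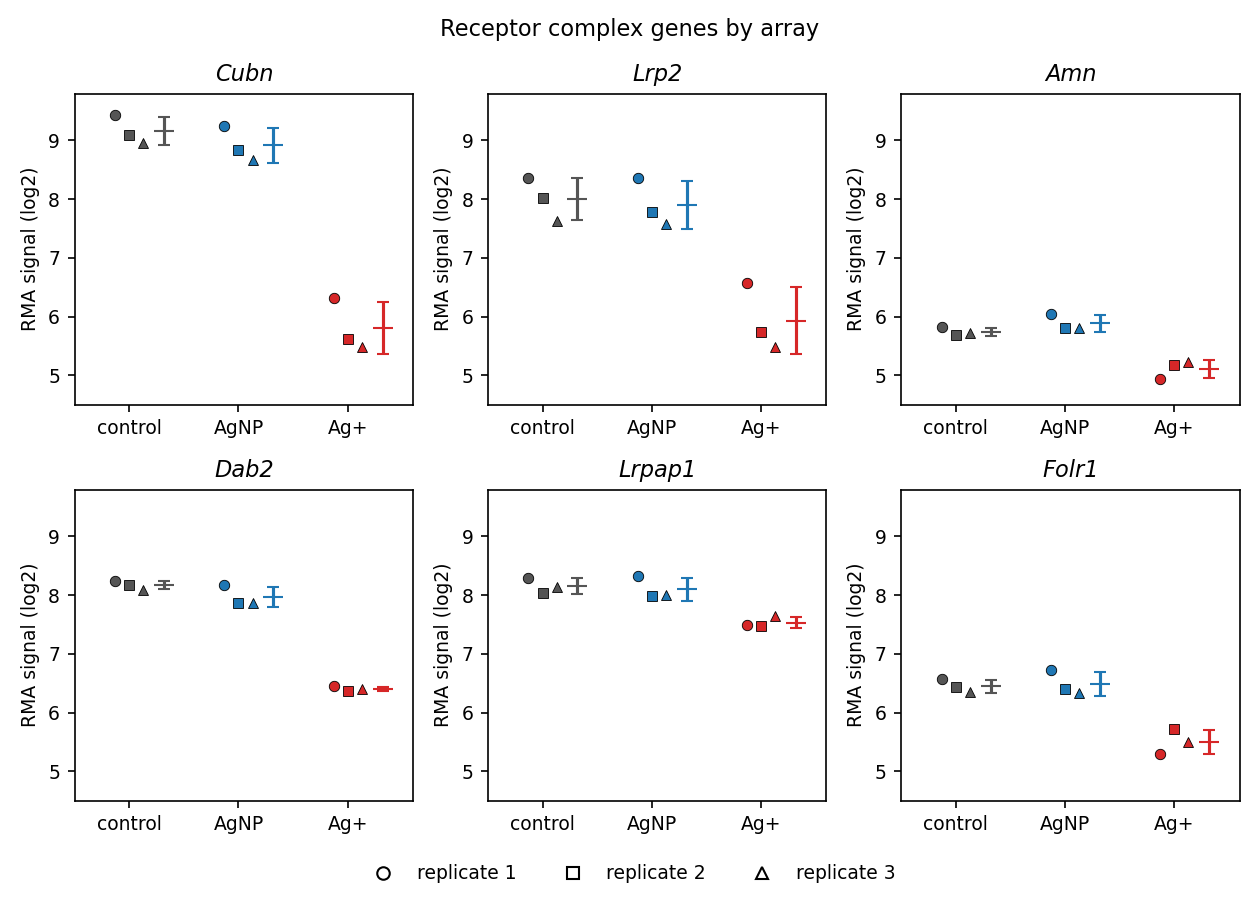
RMA signal (log2) of the 6 genes on each array (circle, square and triangle for replicates 1, 2 and 3), with the mean and SD of each group (n = 3) beside the points. In each panel the 3 Ag+ arrays lie below all 6 other arrays, from a mean of 5.81 for Cubn against 9.16 in controls to 7.53 for Lrpap1 against 8.16.

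With AgNP at the same mass dose, 0 of the 6 genes were called against controls in limma, where 0.0868% of named probe sets were called. At an unadjusted p under 0.05, which 8.44% of named probe sets reached, the count was 1 of 6, Dab2 (log2 fold change -0.20, 95% CI -0.40 to -0.0069, unadjusted p = 0.044, adjusted p = 0.58). The methods' own test also called 0 of them after adjustment. It called 0 named probe sets in any comparison, so nothing can be drawn from that count. On every gene the AgNP arrays overlapped with the control arrays, as most named probe sets did (10.9% did not overlap). At this mass dose the paper reported more cell death in EBs with Ag+ than with AgNP by a viability assay. Its flow cytometry of EBs at this dose went the other way. Annexin V binding, a sign of apoptosis, rose with AgNP and did not change significantly with Ag+. Cells of the outer shell of EBs fell off from a lower concentration of Ag+ than of AgNP. The part of cell death or of this shedding in the differences between the treatments was not tested.

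The intervals show how much of a change the AgNP arrays could still hold. For Cubn the difference was -0.24 (95% CI -0.76 to 0.27) and for Lrp2 -0.10 (-0.78 to 0.58). They were 0.14 (-0.079 to 0.36) for Amn, -0.057 (-0.30 to 0.19) for Lrpap1 and 0.039 (-0.25 to 0.33) for Folr1. In this fit, none of the 6 intervals reached the size of the fall that the same gene had with Ag+. Without AgNP replicate 1 and control replicate 3 the differences were more negative, at -0.51 for both Cubn and Lrp2, -0.34 for Dab2, -0.18 for Lrpap1 and -0.13 for Folr1, whose sign turned, and 0.050 for Amn. None was called there either (adjusted p = 0.23 to 0.89).

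The treatments were also compared directly, on arrays of which the Ag+ ones were used above as well. Against Ag+, 5 of the 6 genes were called higher with AgNP, where 0.363% of named probe sets were. On all 6 genes the AgNP arrays lay above the Ag+ arrays without overlap, as did 6.72% of named probe sets. Cubn was 8.63-fold higher with AgNP (log2 fold change 3.11, SE 0.23, adjusted p = 0.0015) and Dab2 2.95-fold (1.56, SE 0.087, adjusted p = 3.9e-04). Lrp2 was 3.91-fold higher (1.97, SE 0.30, adjusted p = 0.034), Folr1 1.99-fold (0.99, SE 0.13, adjusted p = 0.015) and Amn 1.71-fold (0.77, SE 0.098, adjusted p = 0.012). Lrpap1 differed by 0.57 (SE 0.11) and did not pass (adjusted p = 0.073).

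These calls were less firm than those against controls. Without AgNP replicate 1 and control replicate 3 only 2 of the 6 genes were called, Cubn and Dab2. Lrp2 lost its call without any 1 of the 3 AgNP arrays, control replicate 2, Ag+ replicate 2 or Ag+ replicate 3 (1.74 to 2.13), Folr1 without AgNP replicate 2 (1.03) or Ag+ replicate 3 (0.99), and Amn without Ag+ replicate 2 (0.81).

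**Figure D2:**
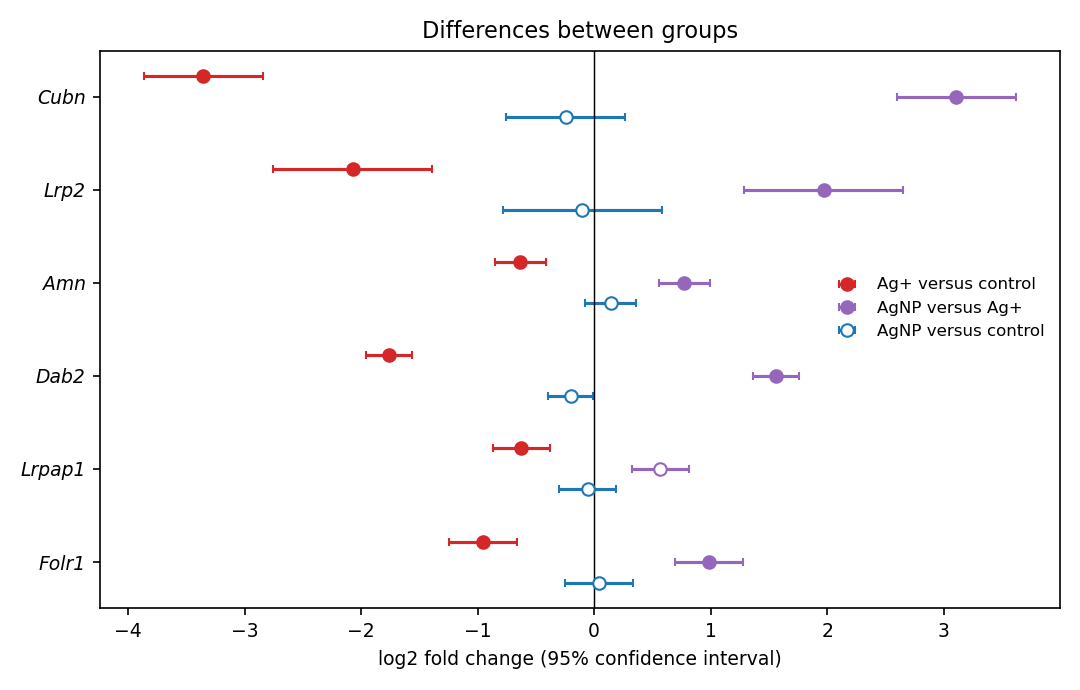
Log2 fold changes of the 6 genes in the 3 comparisons, with 95% confidence intervals from limma (3 arrays a group). Filled points have an adjusted p under 0.05. The Ag+ values run from -3.35 (Cubn) to -0.63 (Amn and Lrpap1), while the values of AgNP against controls lie between -0.24 and 0.14.

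On these arrays the measured falls of the genes of the complex differed in size, which the test used here could not establish. Within each array the log2 signal of 1 gene was subtracted from that of another, and these differences were compared between groups by an exact two-sided permutation test, which with 3 arrays against 3 cannot go below 0.1. From controls to Ag+, the log2 change of Cubn minus that of Lrp2 was -1.28 (SE 0.11), minus that of Amn -2.72 (SE 0.36) and minus that of Dab2 -1.59 (SE 0.26). In each case the arrays of the groups did not overlap (exact permutation p = 0.1, 0.12 adjusted over 12 comparisons). Lrp2 and Dab2 were the pair whose arrays overlapped, with a difference of -0.31 (SE 0.36, exact permutation p = 0.5). By this test no pair could reach a p under 0.05. With Ag+, Amn had a mean of 5.11, near the median of 5.06 of all named probe sets. How close such a signal lies to background was not measured, so the size of its fall is less certain.

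Within the groups, Cubn and Lrp2 moved in step. Replicate 1 was the highest and replicate 3 the lowest array for both genes in all 3 groups. Cubn deviated from its group mean by 0.27, 0.33 and 0.51 on replicate 1 of control, AgNP and Ag+, and Lrp2 by 0.36, 0.45 and 0.64 on the same arrays. Over the 9 arrays the deviations of both genes had a Pearson correlation of 0.99, a description of arrays that share their RNA samples and normalization. For Amn and Cubn the correlation was -0.11, a value that rests on Ag+ replicate 1, the lowest Ag+ array of Amn and the highest of Cubn, and that was 0.85 without it. In controls and with AgNP, replicate 1 was the highest array of Amn as well. For Cubn and Lrp2 it was 0.98 to 1.00 with each array left out. The deviations of Amn had correlations of 0.85 with those of Folr1 and 0.80 with those of Lrpap1. With each array left out these were 0.75 to 0.96 and 0.63 to 0.97, both lowest without AgNP replicate 1. The pattern of Cubn and Lrp2 was not theirs alone. Among genes named below for their likeness over the same arrays, deviations of Srgn had correlations of 0.95 with Cubn and 0.96 with Lrp2. Those of Retreg1 were 0.94 and 0.96.

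**Figure D3:**
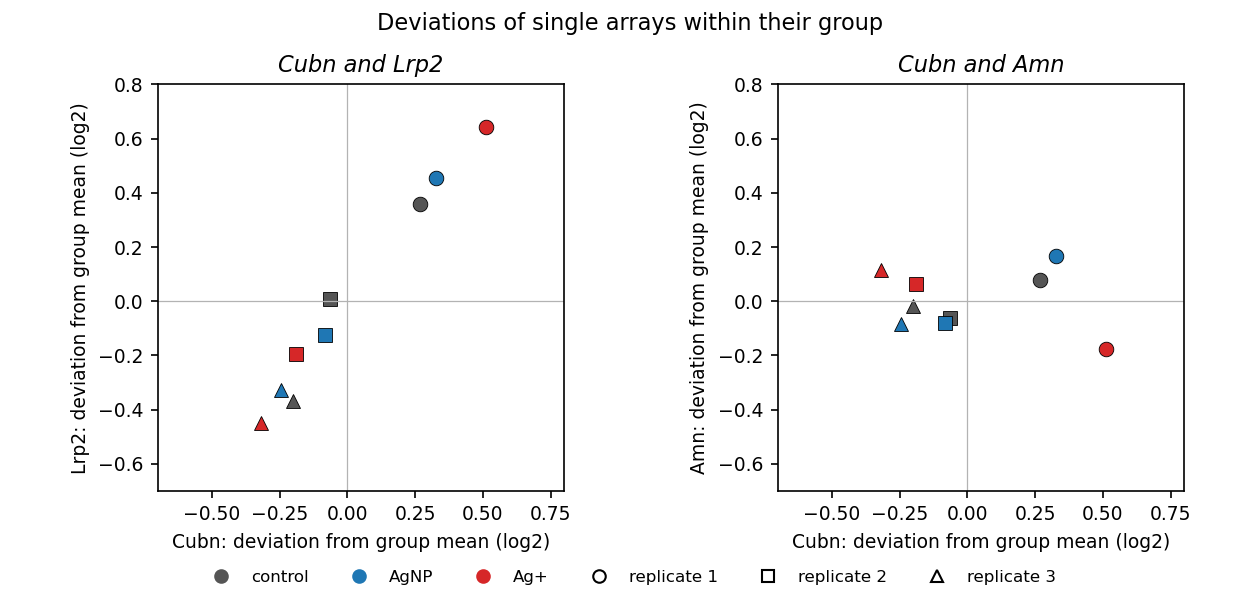
Deviation of each array from its group mean (log2), Lrp2 against Cubn on the left and Amn against Cubn on the right, coloured by group with a symbol for each replicate number. Lrp2 and Cubn deviate together (correlation 0.99 over 9 arrays) and for Amn and Cubn the correlation is -0.11, or 0.85 without Ag+ replicate 1, the red circle.

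The genes whose profile over the 9 arrays was most like that of a member were named among 11541 other genes with a mean signal of at least 5. These likenesses rest largely on the gap between the Ag+ arrays and the rest. For Cubn they were Srgn, the core protein of a granule proteoglycan (r = 0.994), the lysosomal protease gene Ctsh (0.993), Retreg1, a receptor for turnover of the endoplasmic reticulum (0.993), Npl, an enzyme of sialic acid breakdown (0.992), and Dpp4, a peptidase of the cell surface (0.992). Dab2 itself came next (0.991), followed by the lysosomal protease genes Lgmn (0.989) and Ctsc (0.989).

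Each of these 8 genes was called lower with Ag+. Log2 fold changes were -2.02 for Npl (adjusted p = 5.1e-04), -1.98 for Dpp4 (2.1e-04), -1.92 for Srgn (0.0013), -1.82 for Ctsh (6.3e-04), -1.61 for Ctsc (8.0e-04), -1.19 for Lgmn (7.2e-04) and -1.12 for Retreg1 (0.0019), and the calls held with each array left out. None of them was called with AgNP against controls (log2 fold changes of -0.20 to 0.032).

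Lrp2 was most like Retreg1 (r = 0.991), Srgn (0.991), the lysosomal mannosidase gene Man2b2 (0.988) and the signalling gene Wnt3 (0.986). Dab2 was most like Sparc, a matrix protein gene strongly expressed in parietal endoderm (0.994), the growth factor gene Nrg1 (0.993), the calcium-binding protein gene S100a1 (0.992) and Dpp4 (0.992). Amn and Folr1 were each the nearest gene to the other (0.978). Amn was followed by Mrps18b (0.973), Cotl1 (0.968) and Mreg (0.965), and Folr1 by Apob (0.977), Slc46a3 (0.973) and Klb (0.973). For Lrpap1 the nearest were Mrps18b (0.976), Sec24d (0.972), Osbp (0.972) and Evx1os (0.970).

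Other genes of the LDL receptor family were read as well, with 12 measured. With Ag+, 1 was called lower, where 1.47% of named probe sets were, and 0 higher, with a median log2 fold change of 0.00. At an unadjusted p under 0.05 there were 4, where 13.8% of named probe sets were. The called gene was Vldlr, which encodes the VLDL receptor and also binds RAP, at 7.42 ± 0.27 (SD, n = 3) in controls, 7.02 ± 0.047 with AgNP and 6.65 ± 0.15 with Ag+ (log2 fold change -0.77, adjusted p = 0.015). It lost its call without control replicate 1 or 2, or Ag+ replicate 2 or 3.

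Among 15 measured ligands of cubilin or megalin, 4 were called lower with Ag+ and 1 higher, with a median of -0.057. The unadjusted p in limma was under 0.05 for 7 of them, beside 13.8% of named probe sets. Bmp4, a growth factor that binds megalin, fell from 8.91 ± 0.46 (SD, n = 3) to 7.12 ± 0.14 (log2 fold change -1.79, adjusted p = 0.0059) and stood at 7.94 ± 0.43 with AgNP, not called against controls. Ttr, the thyroxine carrier transthyretin, fell from 6.85 ± 0.16 through 6.46 ± 0.11 with AgNP to 5.71 ± 0.15 (-1.14, adjusted p = 6.3e-04). The adhesive protein gene Vtn went the other way, from 4.69 ± 0.095 to 6.25 ± 0.47 with Ag+ (1.56, adjusted p = 0.0045). Its control signal lay below the median of all named probe sets, so the size of this rise is less certain. These calls held with each array left out, whereas the smaller falls of Apoe (-0.38, adjusted p = 0.032) and of Tcn2, the transporter of vitamin B12 in blood (-0.33, adjusted p = 0.022), did not. Apoe lost its call without control replicate 1 or 2, AgNP replicate 2 or any 1 of the Ag+ arrays, and Tcn2 without control replicate 2 or 3 or Ag+ replicate 1 or 2.

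In vitamin B12 and folate uptake, 2 of 13 measured genes were called lower with Ag+ and 0 higher, Tcn2 and Abcd4, which exports vitamin B12 from lysosomes (-0.38, adjusted p = 0.020). Abcd4 lost its call without control replicate 1 or 2 or Ag+ replicate 2 or 3, and the median of the list was -0.0092. An unadjusted p under 0.05 in limma was reached by 3 of the 13 genes, beside 13.8% of named probe sets.

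The general machinery of endocytosis had small differences, mostly negative. Counts at an unadjusted p under 0.05 in limma stand beside 13.8% of named probe sets. Of 18 measured genes of the clathrin coat and its adaptors, 1 was called lower and 0 higher (median -0.067, 16 negative, 6 at an unadjusted p under 0.05), Myo6, the motor that pulls coated vesicles inward (-0.57, adjusted p = 0.018). Without Ag+ replicate 2 or 3 it was not called. Of 19 genes of endosome sorting and recycling, 3 were called lower and 0 higher (median -0.15, 18 negative, 8 at an unadjusted p under 0.05). These were the tethering factor gene Eea1 (-0.46, adjusted p = 0.029), the endosomal chloride-proton exchanger gene Clcn5 (-0.33, 0.030) and the recycling gene Ehd1 (-0.30, 0.037). Each of the 3 lost its call in at least 7 of the 9 fits with an array left out, and in these fits the count ranged from 0 to 2. Without AgNP replicate 1 and control replicate 3, genes called lower numbered 2 among the ligands, 1 in vitamin B12 and folate uptake, 0 in the clathrin list and 1 in the endosome list.

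Markers of tissues known for these receptors were read beside the complex. Of 22 measured visceral endoderm markers, 7 were called lower with Ag+ and 0 higher, with a median of -0.084. In limma 13 of them had an unadjusted p under 0.05, in both directions, where 13.8% of named probe sets did. Apob, the carrier protein of lipoproteins, fell from 6.61 ± 0.12 (SD, n = 3) in controls and 6.46 ± 0.15 with AgNP to 4.56 ± 0.34 (-2.05, adjusted p = 2.9e-04). Its signal with Ag+ lay below the median of all named probe sets, so the size of this fall is less certain. Spink1, a protease inhibitor gene, fell from 8.98 ± 0.038 to 7.84 ± 0.17 (-1.15, adjusted p = 3.6e-04), and the transcription factor gene Gata4 from 7.82 ± 0.12 to 6.80 ± 0.15 (-1.03, adjusted p = 5.1e-04). These 3 and Ttr stayed called with each array left out. Gata6 (-0.59, adjusted p = 0.018), Mttp (-0.71, 0.024) and Rhox5 (-0.66, 0.027) did not, so that the count ranged from 4 to 7, and it was 6 without AgNP replicate 1 and control replicate 3.

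Other markers of this tissue, picked out after their values were seen, were not called. Afp, a defining marker, had a signal below the median of all probe sets, at 4.45 ± 0.18 (SD, n = 3) in controls and 4.38 ± 0.13 with Ag+. Sox17 was 7.32 ± 0.054 in controls and 7.62 ± 0.040 with Ag+ (adjusted p = 0.072), and Foxa2 was 7.90 ± 0.25 and 8.28 ± 0.13 (adjusted p = 0.19). Foxa1 (log2 fold change 0.31) and Cldn6 (0.29) were also higher with Ag+. For Sox17, Foxa2, Foxa1 and Cldn6 the unadjusted p in limma was 0.0021, 0.011, 0.025 and 0.012. Summed on the linear scale and returned to log2, the 22 markers gave 11.6 to 11.7 in controls, 11.5 to 11.6 with AgNP and 11.4 to 11.5 with Ag+. No marker was listed at 0. The part of a change in visceral endoderm in the fall of the receptor complex was not tested.

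Of 12 measured parietal endoderm markers, 4 were called lower with Ag+ and 1 higher (median -0.33). The unadjusted p in limma was under 0.05 for 9 of them, beside 13.8% of named probe sets. Sparc fell from 9.23 ± 0.040 (SD, n = 3) to 8.41 ± 0.054 (-0.83, adjusted p = 2.3e-04), with Col4a2 at -0.87 (adjusted p = 0.0031) and Col4a1 at -0.66 (0.0041), all called with each array left out. Lama1 (-0.80, adjusted p = 0.036) kept its call in 2 of these 9 fits, and Plat, the gene that rose (0.51, adjusted p = 0.046), in 1. The summed level was 12.1 to 12.2 in controls and 11.8 to 11.9 with Ag+, and its part in the result was not tested.

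Of 9 kidney proximal tubule markers, 0 were called in either direction with Ag+ in limma (1 at an unadjusted p under 0.05), and 7 had a mean signal under 5. The smallest p values were those of the transporter gene Slc5a12 (3.37 ± 0.041 in controls and 3.50 ± 0.049 with Ag+, SD, n = 3) and the water channel gene Aqp1 (5.14 ± 0.12 and 4.98 ± 0.062). Of 12 markers of pluripotent cells, 1 was called lower, Klf4 (-0.56, adjusted p = 0.023, lost without any 1 of the control arrays or Ag+ replicate 2 or 3). In this list 3 markers had an unadjusted p under 0.05 in limma, where 13.8% of named probe sets did. Of 8 markers of neural ectoderm 0 were called (1 at an unadjusted p under 0.05), with Six3 at 0.25 and Hes5 at 0.24 on the log2 scale.

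**Figure D4:**
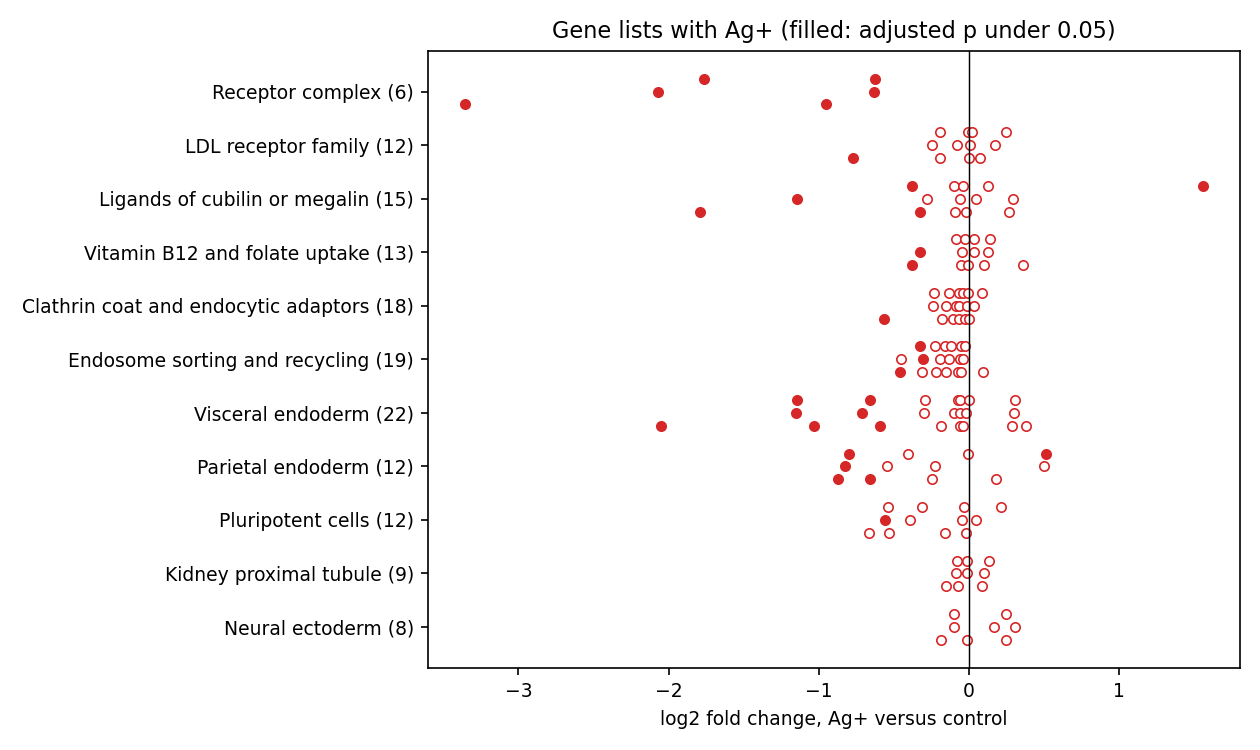
Log2 fold changes with Ag+ against controls for the receptor complex and the measured genes of each list (number in brackets), 3 arrays a group. Points are single genes, filled at an adjusted p under 0.05 and shifted vertically for visibility. All 6 genes of the complex lie at -0.63 or lower, while list medians lie between -0.33 (parietal endoderm) and 0.078 (neural ectoderm).

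With AgNP against controls, 0 of the 135 distinct genes in these lists were called in limma. An unadjusted p under 0.05 was reached by 19 of them, beside 8.44% of named probe sets. Between the treatments, 5 of the 22 visceral endoderm markers were higher with AgNP and 0 lower. Apob was 1.90 higher on the log2 scale (adjusted p = 0.0018), a call that held with each array left out. The calls of Rhox5 (0.80, adjusted p = 0.035), Ttr (0.75, 0.021), Spink1 (0.70, 0.014) and Gata4 (0.62, 0.022) did not, and the count ranged from 1 to 4 with an array left out. Of the parietal endoderm markers, Sparc (0.74, adjusted p = 0.0016), Col4a2 (0.63, 0.045) and Col4a1 (0.54, 0.036) were higher with AgNP, of which Sparc held with each array left out. Vtn was the only gene of the lists called lower with AgNP than with Ag+ (-1.27, adjusted p = 0.039), and it kept this call in 2 of the 9 fits with an array left out.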

How the data were processed

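RNA of mouse EBs was hybridised to Affymetrix Mouse Gene ST arrays. The authors summarised probe sets by RMA in Affymetrix Expression Console 1.3 (background correction, quantile normalization, median polish), and deposited log2 values for 41345 probe sets, which entered the tests unaltered and without a filter on signal. The sources disagree on the amount of RNA labelled per array. The platform's annotation names 25341 probe sets, 23521 of them with 1 gene and 1820 with several.

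Groups came from the sample labels. R 4.3.3 with limma 3.58.1 fitted 3 group means to all 9 arrays by lmFit, moderated by eBayes, with two-sided contrasts, Benjamini-Hochberg adjustment over the named probe sets, a threshold of 0.05 and intervals at 95%. The procedure was tested on simulated data. Genes with several probe sets were read by the brightest that names a single gene. The methods' own test was a Welch test per probe set with a fold change of 1.5.

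The members and the 10 gene lists (150 entries, 140 measured) were chosen with earlier results of these data known. Named genes are the members, up to 6 called genes per list by the smallest p with Ag+ (2 where none was called), the 8 genes most like Cubn and the 4 most like each other member. Rhox5, Afp, Sox17, Foxa2, Foxa1, Cldn6 and the stem cell genes were named beyond this rule after their values were seen, and neighbouring genes likewise. Alternatives were other samples in the fit, variance models, array weights, feature sets, centring, tests, thresholds, a replicate block and each array left out. A fit without both AgNP replicate 1 and control replicate 3 was chosen after seeing the data. Arrays at the lower Ag+ dose were not analysed here. The number of arrays limits the precision.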

Additional observations from a re-analysis of the deposited data

How the results depend on the processing

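With Ag+ against controls, 6 members were called under 9 other settings and without AgNP replicate 1 and control replicate 3, 5 when all 41345 probe sets were tested, and 0 with the methods' Welch test after adjustment. That test called 0 named probe sets anywhere, while all 6 members passed the study's thresholds by it, unadjusted. With AgNP against controls the count was 0 throughout. Between the treatments it was 2 instead of 5 with only the groups compared, 3 with all probe sets, 0 with the methods' Welch test and 2 without AgNP replicate 1 and control replicate 3. Fewer arrays or more features enter the first, the second and the last of these by construction, and for the Welch test the cause was not tested. Leaving out each array in turn gave 5 to 6 members with Ag+ against controls, 0 to 0 with AgNP against controls and 3 to 5 between the treatments. Lrpap1 was called between the treatments with a trended, robust variance (adjusted p = 0.033) or a mean signal of at least 5 (0.030).

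No called difference of a member changed sign under the 21 alternatives. Signs of Lrp2, Lrpap1 and Folr1 did change with AgNP against controls, where none was called. Centring the arrays moved the median of all named probe sets by 0.048, 0.031 and -0.017 in the 3 comparisons. With the replicate number as a block the counts of members were 6, 0 and 5, and of all named probe sets 623, 20 and 161 instead of 579, 22 and 129. Arrays with the same number deviated together only in part (correlations of -0.056 to 0.23), and 5 of 9 arrays went best with their own number, a mixed result, and no source used here ties a number to a shared preparation, so the samples were treated as sharing only a number. Signals near the median of 5.06, as for Amn with Ag+, are closest to background, and no detection call was used here.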

Other observations

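Protein-coding genes on either side of the 6 members on their chromosomes were read as well, 1141 to 1055601 bases away. Other genes may lie between. Of the 12 neighbours, 0 were called in any of the 3 comparisons in limma. The shares of named probe sets called were 2.28% (Ag+ against controls), 0.0868% (AgNP against controls) and 0.509% (between the treatments). With shares this low, 0 of 12 says little about the neighbours. Rsu1, 4900 bases from Cubn, had a log2 fold change of -0.013 (SE 0.068) with Ag+, and Trdmt1 on the other side one of -0.023 (SE 0.097). Next to Folr1 on chromosome 7, Folr2, which encodes another folate receptor and lies 1141 bases away, had a low signal and a log2 fold change of 0.031 (SE 0.096). Rcor1, 155194 bases from Amn, had the largest difference of the 12, at -0.21 with Ag+ (SE 0.084, adjusted p = 0.32).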
